A study of Caenorhabditis elegans with 3 samples.

Results

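The 43 nuclear pore and nuclear transport genes described here are the entries of the deposited gene table whose worm gene name starts with npp-, imb-, ima-, ran-, xpo- or nxf- and a number, out of 45836 gene entries. They comprise 26 npp, 3 imb, 3 ima, 5 ran, 4 xpo and 2 nxf genes, and all 43 were among the 11345 genes that passed the filter on low values. The rule reads names and no measured value, although it was set up with earlier results of these data known. RNA was taken from dissected gonads of young adult hermaphrodites of the Caenorhabditis elegans strain N2, the progeny of worms fed RNAi bacteria from the first larval stage at 24 °C. The first group received csr-1 RNAi from the Ahringer library. The second received a combined RNAi against P granule components, whose targets are known from the study as glh-1, glh-4, pgl-1 and pgl-3. The control group, called EV here, was fed HT115 bacteria with the empty L4440 plasmid. Each group had 4 biological replicates, named orig, 1, 2 and 3, and each replicate pooled 400 to 500 germlines.

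Nuclear pores are channels through the nuclear envelope built from nucleoporins, which in the worm carry the name npp. An outer ring (the Y complex) and an inner ring form the scaffold, membrane nucleoporins anchor it, and others fill the channel or project to the cytoplasm and into the nucleus as the basket. Importins carry proteins in and exportins carry proteins and RNAs out, and the GTPase Ran gives the direction, because it is bound to GTP in the nucleus and to GDP in the cytoplasm. In C. elegans germ cells, P granules (condensates of RNA and protein) sit on the cytoplasmic side of the pores, so that many mRNAs pass through them on leaving the nucleus. CSR-1 is an Argonaute protein that is found in P granules and carries small RNAs antisense to germline mRNAs.

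Values are normalised reads, that is, reads divided by the authors' size factor of the library, and single libraries are given in the order orig, 1, 2, 3. Gene reads per library ranged from 18.4 to 31.9 M (megareads). The RNAi targets were checked first. csr-1 had 2445 to 6025 normalised reads in the csr-1 RNAi libraries, against 21838 to 25470 in the EV libraries. pgl-1 had 1495 to 2746 normalised reads under P granule RNAi, against 16123 to 24248 in EV. pgl-3 had 1489 to 2181 under P granule RNAi, against 9704 to 13422 in EV, and glh-4 had 1437 to 1596, against 5344 to 7987 in EV. glh-1, the fourth target, had 16164 to 18726 under P granule RNAi, against 18080 to 29600 in EV. These ranges overlapped and glh-1 was not called (log2 fold change −0.52, limma adjusted p = 0.299). Under csr-1 RNAi, glh-1 (1.38, limma adjusted p = 0.000326) and glh-4 (1.22, limma adjusted p = 0.000556) were called higher than in EV. pgl-1 (0.07) and pgl-3 (−0.22) were not called there. The tissue label was checked against 10 germ cell markers, whose summed level was 117844 to 146059 in csr-1 RNAi, 113112 to 169139 in P granule RNAi and 137956 to 174139 in EV libraries. Several marker lists of other cell types varied more from library to library. Summed over the sperm markers, the level was 1006 to 47263 normalised reads in csr-1 RNAi, 5517 to 26614 in P granule RNAi and 1512 to 5641 in EV libraries. The gonadal sheath and spermatheca markers summed to 5322 to 25361 in csr-1 RNAi, 8301 to 11191 in P granule RNAi and 12414 to 23860 in EV libraries. Intestine markers summed to 6176 to 34284 in csr-1 RNAi, 3056 to 32466 in P granule RNAi and 7108 to 38380 in EV libraries. Hypodermis and cuticle markers summed to 491 to 2397 in csr-1 RNAi, 928 to 5668 in P granule RNAi and 1073 to 2310 in EV libraries. Body muscle markers summed to 1319 to 3084 in csr-1 RNAi, 1642 to 3240 in P granule RNAi and 1553 to 3839 in EV libraries. Neuron markers were steadier, at 3156 to 3715 in csr-1 RNAi, 2688 to 4458 in P granule RNAi and 2660 to 3366 in EV libraries. The neuronal marker rgef-1 and 4 of the sperm markers stayed below 10 normalised reads in every library. The part of other cell types in the results was not tested. csr-1 RNAi replicate 3 stood apart by its low values for long transcripts, and counts without it are given beside the main ones. It also held the highest sperm (47263), hypodermis and cuticle (2397) and body muscle (3084) marker sums of its group. Its germ cell (117844), sheath and spermatheca (5322) and intestine (6176) sums were the lowest of the group. In such bulk samples, fewer cells of a type and less RNA per cell cannot be told apart.

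Nuclear pore and transport genes were among the abundant transcripts of the control gonad. In EV libraries the median of the 43 genes was 2203 normalised reads per kb of exon, against 194 over all tested genes with a length, and 16 of the 43 lay in the top decile. The gene with the highest level was ran-1, which encodes Ran itself, with 27799 ± 998 normalised reads per kb (SD, n = 4). The importin α gene ima-2, the Nup358 counterpart npp-9 and the importin β family gene imb-3 followed with 12826 ± 1481, 10283 ± 1601 and 8951 ± 1125 per kb. ran-4, which encodes the factor NTF2 that returns Ran to the nucleus, had 6616 ± 759 per kb. From the sixth gene on the levels formed a nearly continuous series, and of all 42 pairs of neighbours in the order only 5 had EV libraries that did not overlap. At the low end, npp-25, the counterpart of the membrane protein TMEM33, had 524 per kb. Far below it, npp-26, to which no role is given here, was close to silent at 7.01 per kb and 4.9 to 15.7 normalised reads. By place, the median level per kb was 2020 for 8 outer ring genes, 1475 for 4 inner ring genes, 1871 for 3 channel genes and 2168 for 3 basket genes, and 3709 for 6 import receptors and 3031 for 4 export receptors.

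**Figure D1:**
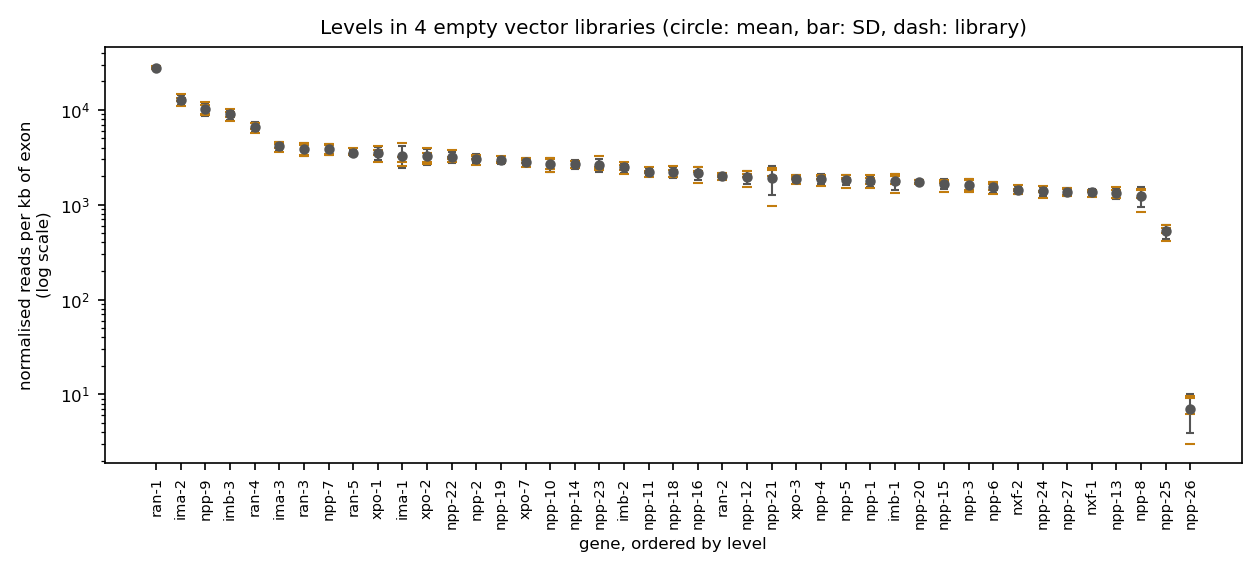
Level of each of the 43 genes in the 4 EV libraries, as normalised reads per kb of exon on a log axis, ordered from high to low. Circles are means, bars are SD and dashes are single libraries. ran-1 stands alone at 27799 per kb and npp-26 at 7.01 per kb, while most genes lie close together.

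No member lay on the X chromosome, which held 11.6% of the tested genes. Chromosome I carried 13 of the genes, II, III and IV carried 8 each and V carried 6. The kit did not mark strand, and 17 of the 43 genes overlap a coding gene on the other strand and 3 overlap one on the same strand in the WBcel235 annotation. These overlaps are of whole gene spans with introns, and how many of them share exons was not counted. Where exons are shared, reads cannot be told apart by strand. Reads counted as ambiguous, 0.78% to 0.92% of a library, were left out.

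The comparison of csr-1 RNAi with EV asks which of these transcripts differ in level after RNAi against the Argonaute gene. 2 receptor genes of the importin β family were lower, and a scaffold and a channel nucleoporin gene were higher. imb-3 fell to 0.488 of its EV level and imb-2 to 0.589 of it, while npp-1 and npp-15 rose 1.44-fold and 1.43-fold. In all, 6 of 43 members (13.95%) were called by limma at an adjusted p under 0.05, against 14.8% of all tested genes. Of these, 2 were higher, npp-1 and npp-15 (4.65%, against 6.98% of all genes), and 4 were lower, imb-2, imb-3, npp-24 and xpo-7 (9.30%, against 7.8%). The share called was thus near that of all genes. Without csr-1 RNAi replicate 3 the same 6 members were called. Without csr-1 RNAi replicate 1 or EV replicate 1 the call was left to 3 of them, npp-1, imb-2 and imb-3 (6.98%, against 9.23% and 9.46% of all genes in these fits). Without P granule RNAi replicate 1 it extended to 10 members (23.3%), against 17.2% of all genes. At an unadjusted p under 0.05 there were 19 members (44.2%), against 28.6% of all genes. This count rested on single libraries: it was 9 without EV replicate 2 (20.9%, against 22.5% of all genes) and 10 without EV replicate 1 (23.3%, against 24.3%). With edgeR on the recovered reads it was 14 (32.6%, against 31.1%). The median log2 fold change of the members was −0.21, against 0.02 for all tested genes, and 15 of 43 lay above 0 (34.9%, against 51.4% of all genes). Without csr-1 RNAi replicate 3 the median was −0.13 and 19 lay above 0, and once a trend with transcript length was taken off the median was −0.07 and 20 lay above 0 (46.5%, against 50.1%). All 4 csr-1 RNAi libraries were below all 4 EV libraries for 8 members, the 4 called lower and ima-2, npp-11, npp-14 and xpo-2 (18.6%, against 11.7% of all genes), and above them for 2, npp-1 and npp-19 (4.65%, against 9.97%).

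Under P granule RNAi no member was called against EV by limma, where 0.0617% of all genes were called (7 genes, with 0.0264% of all genes higher and 0.0353% lower). Of the 4 genes called lower, 3 were the RNAi targets pgl-1, pgl-3 and glh-4, so this fit called few genes beyond the targets. At an unadjusted p under 0.05 there were 9 members (20.9%), against 13.8% of all genes. That count was 4 without P granule RNAi replicate 3 (9.30%, against 9.36% of all genes), 5 without EV replicate 1 or 2 (11.6%, against 8.88% and 7.34%) and 0 once the trend with transcript length was taken off, against 6.91%. By adjusted p, edgeR called 0 members and DESeq2 called 1, npp-6 (2.33%, against 0.811% of all genes). Without csr-1 RNAi replicate 3, which enters the shared estimate of the spread, limma called 2 members lower, npp-6 and xpo-3, among 1.79% of genes in all. The median log2 fold change of the members was −0.16, against 0.03 for all genes, and 9 of 43 lay above 0 (20.9%, against 52.4% of all genes), but this direction turned round once the length trend was taken off, when 30 lay above 0 and the median was 0.05. All 4 P granule RNAi libraries were below all 4 EV libraries for 6 members (13.95%, against 7.06% of all genes) and above them for 1, ran-1 (2.33%, against 5.13%). The comparisons with EV share the same 4 EV libraries, so their values are given side by side without a measure of likeness.

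**Figure D2:**
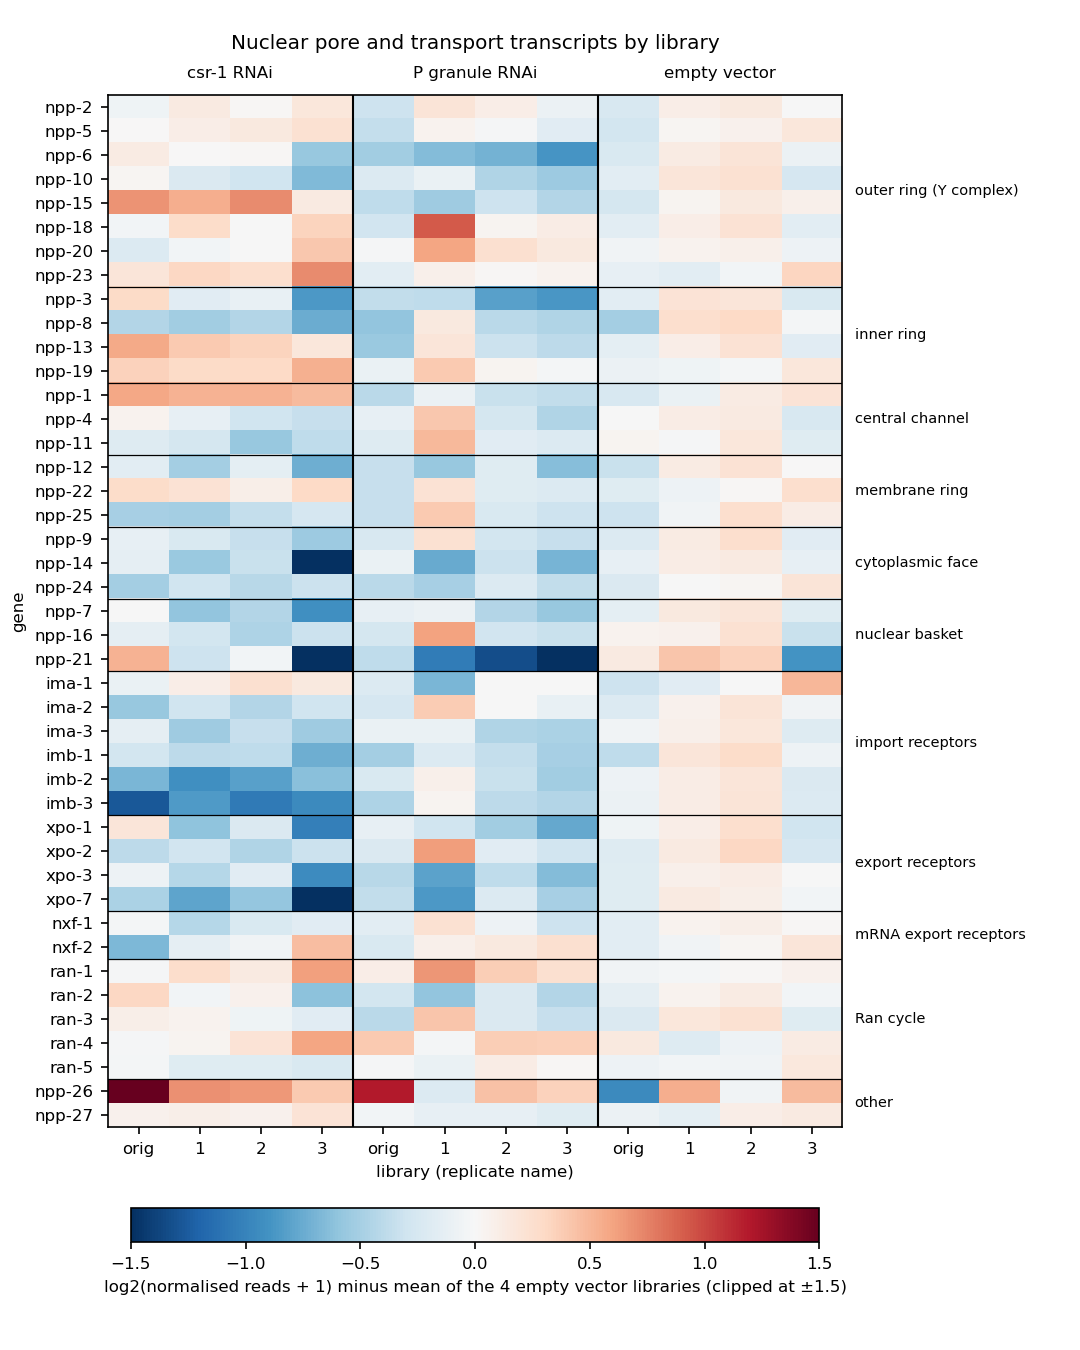
Heat map of log2(normalised reads + 1) minus the mean of the 4 EV libraries, for 43 genes in rows by place or role and 12 libraries in columns, with csr-1 RNAi, P granule RNAi and EV from left to right. imb-3 and imb-2 are low and npp-1 is high in all 4 csr-1 RNAi libraries, and npp-21 and npp-14 are lowest in csr-1 RNAi replicate 3.

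**Figure D3:**
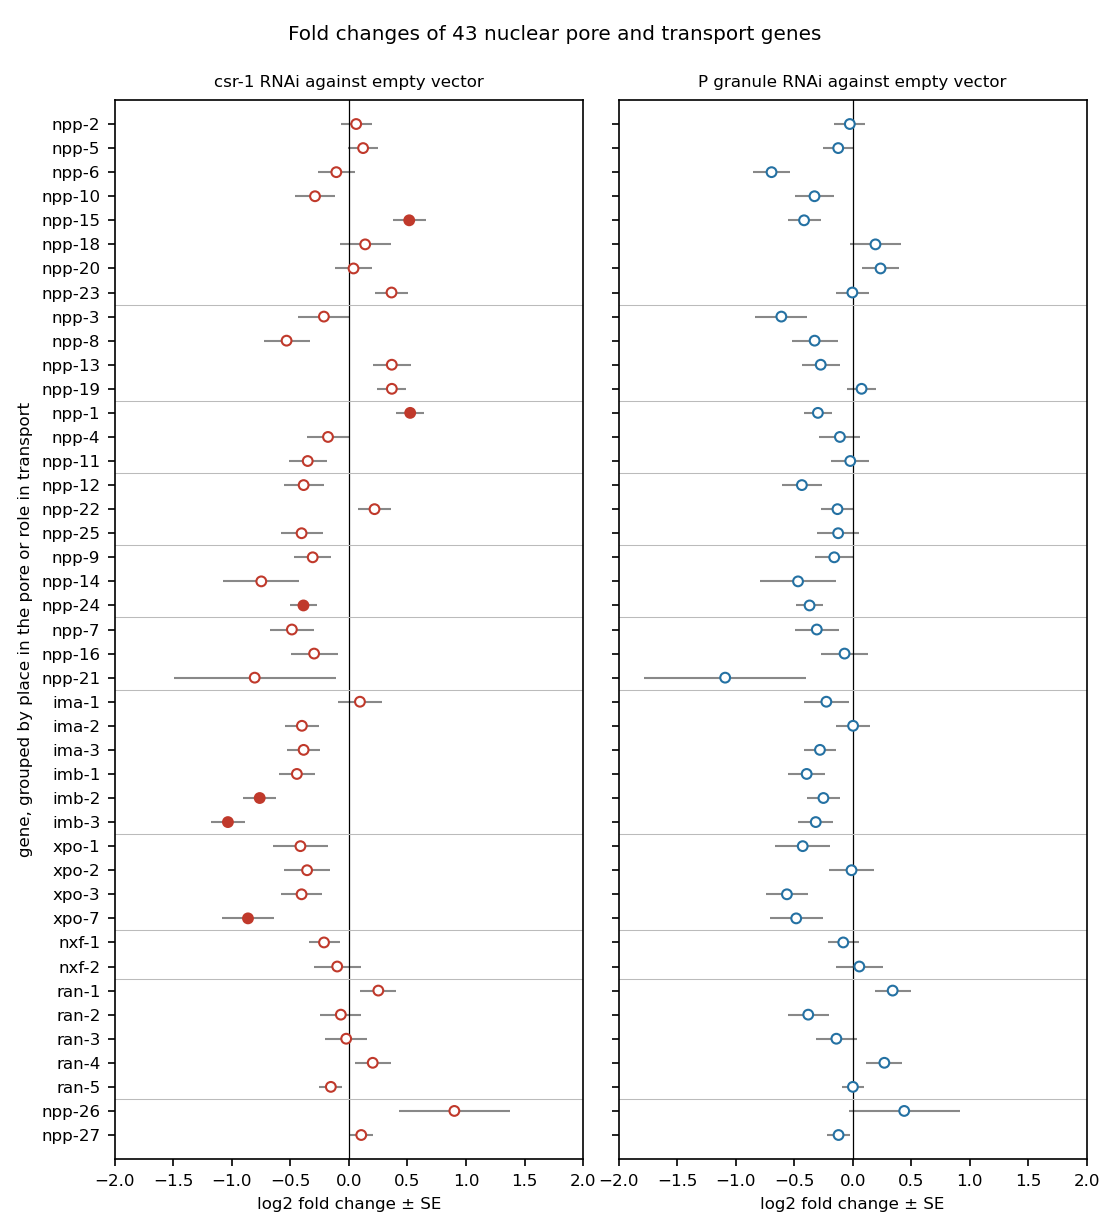
Log2 fold change ± SE of limma for the 43 genes in the 2 comparisons with EV, grouped by place or role as in the heat map. Filled points have an adjusted p under 0.05: 6 genes under csr-1 RNAi and none under P granule RNAi.

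Among the 6 import receptors, 2 were called lower under csr-1 RNAi, and 5 of 6 had a fold change below 0 in each comparison with EV. After adjustment for transcript length 5 of 6 were still below 0 under csr-1 RNAi, but only ima-1 was under P granule RNAi. imb-3 encodes an importin β family receptor whose human and yeast counterparts carry ribosomal proteins and histones. It had 13687, 18304, 15800.1 and 17026 normalised reads in the csr-1 RNAi libraries, 23900.4, 33835, 25167 and 24338 in the P granule RNAi libraries and 30967, 35641, 37662 and 28569 in the EV libraries. Each csr-1 RNAi library was lower than every library of the P granule RNAi and EV groups. The log2 fold change against EV was −1.03 (SE 0.15, limma adjusted p = 0.00105) under csr-1 RNAi and −0.32 (SE 0.15, limma adjusted p = 0.36) under P granule RNAi. Every alternative fit and every left-out library kept the call under csr-1 RNAi, with adjusted p-values of up to 0.0455.

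imb-2 encodes transportin, the importin that carries many RNA-binding proteins into the nucleus. Its values were 4959, 4206, 4505 and 5136 normalised reads in the csr-1 RNAi libraries, 6812, 8379, 6336 and 5542 in the P granule RNAi libraries and 7548, 8579, 9021 and 6856 in the EV libraries. The csr-1 RNAi libraries again lay below both other groups without overlap, with a log2 fold change against EV of −0.76 (SE 0.14, limma adjusted p = 0.00437). Under P granule RNAi it was −0.25 (SE 0.14, limma adjusted p = 0.397), and the libraries overlapped. After adjustment for transcript length imb-2 was −0.52 under csr-1 RNAi and was no longer called (limma adjusted p = 0.0651). imb-2 overlaps acr-20 on the other strand. imb-1, the importin β that works with the α adaptors, had 5083, 4662, 4698 and 3699.6 normalised reads in the csr-1 RNAi libraries, 4325, 5324, 4773 and 4336 in the P granule RNAi libraries and 4714, 6963, 7429 and 5811 in the EV libraries. The groups overlapped and the log2 fold change against EV was −0.45 (SE 0.16, limma adjusted p = 0.0758) under csr-1 RNAi and −0.39 (SE 0.16, limma adjusted p = 0.337) under P granule RNAi.

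None of the 3 importin α genes, whose products bridge cargo and importin β, was called. ima-2 had 15528, 18659, 16921 and 18718 normalised reads in the csr-1 RNAi libraries, 19350.1, 29969, 22832 and 21386 in the P granule RNAi libraries and 20006, 23997, 26295 and 22201 in the EV libraries. Each csr-1 RNAi library was below each library of the other groups, and the log2 fold change was −0.40 (SE 0.15, limma adjusted p = 0.0876) against EV and −0.41 (SE 0.15, limma adjusted p = 0.109) against P granule RNAi. ima-3 had 9808, 7484, 8488 and 7477 normalised reads in the csr-1 RNAi libraries, 10117, 10113, 7928 and 7757 in the P granule RNAi libraries and 10445, 11370.5, 12113 and 9489.9 in the EV libraries. Its csr-1 RNAi and EV libraries overlapped by 1 library each way, with −0.39 (SE 0.14, limma adjusted p = 0.0811) under csr-1 RNAi and −0.28 (SE 0.14, limma adjusted p = 0.371) under P granule RNAi. ima-1 had 5752, 6569.8, 7250.4 and 6789 normalised reads in the csr-1 RNAi libraries, 5334, 3826, 6140.2 and 6141 in the P granule RNAi libraries and 4971, 5452, 6106 and 8669 in the EV libraries. In EV replicate 3 it was higher than in any other library, and its log2 fold change was 0.09 (SE 0.19) under csr-1 RNAi and −0.22 (SE 0.19) under P granule RNAi.

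All 4 export receptor genes had fold changes below 0 in both comparisons with EV, and 1 was called. After adjustment for transcript length all 4 were still below 0 under csr-1 RNAi, but xpo-1 (0.03) and xpo-2 (0.35) lay above it under P granule RNAi. The called gene was xpo-7, named after exportin-7, with 7082, 5686, 6538 and 3201 normalised reads in the csr-1 RNAi libraries, 7598, 5401, 8504 and 6944 in the P granule RNAi libraries and 8615, 10751, 10437 and 9552 in the EV libraries. Both RNAi groups lay wholly below EV, and csr-1 RNAi replicate 3 was the lowest library. The log2 fold change against EV was −0.86 (SE 0.23, limma adjusted p = 0.024) under csr-1 RNAi and −0.48 (SE 0.23, limma adjusted p = 0.36) under P granule RNAi. The csr-1 RNAi call was lost without csr-1 RNAi replicate 1, without EV replicate 1 or without EV replicate 2, with adjusted p-values of up to 0.0693. It was also lost with scaling by library total and without the 3 libraries named 3. xpo-1 encodes the main protein exportin, CRM1 in other animals. Its values were 17045, 9889, 12943 and 7386 normalised reads in the csr-1 RNAi libraries, 13822, 12180.4, 10479 and 8844 in the P granule RNAi libraries and 14380.0, 16148, 17936 and 12232 in the EV libraries. They spanned more than 2-fold within csr-1 RNAi, and the log2 fold change was −0.42 (SE 0.24) under csr-1 RNAi and −0.43 (SE 0.24) under P granule RNAi. xpo-2, the CAS counterpart that returns importin α to the cytoplasm, stood at −0.36 under csr-1 RNAi and −0.01 under P granule RNAi. xpo-3, the exporter of transfer RNA, stood at −0.41 under csr-1 RNAi and −0.56 under P granule RNAi, and its P granule RNAi libraries were all below EV.

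Neither mRNA export receptor gene was called in any comparison. nxf-1, the TAP counterpart that takes mature mRNA through the pore, had 3707, 2809.8, 3226 and 3366 normalised reads in the csr-1 RNAi libraries, 3385, 4425, 3587 and 3046 in the P granule RNAi libraries and 3395, 3911, 4029.9 and 3822 in the EV libraries. The groups overlapped, with log2 fold changes of −0.21 (SE 0.13) under csr-1 RNAi and −0.08 (SE 0.13) under P granule RNAi. Its relative nxf-2 stood at −0.10 under csr-1 RNAi and 0.06 under P granule RNAi.

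In the Ran cycle, none of 5 genes was called in any comparison. ran-1 had 26277, 32092, 29247 and 40964 normalised reads in the csr-1 RNAi libraries, 28533, 42212, 34462 and 31347 in the P granule RNAi libraries and 25754, 26072, 26919 and 27891 in the EV libraries. Of the csr-1 RNAi libraries 3 of 4, and of the P granule RNAi libraries all 4, were above every EV library, and the log2 fold change was 0.25 (SE 0.15, limma adjusted p = 0.309) under csr-1 RNAi and 0.34 (SE 0.15, limma adjusted p = 0.359) under P granule RNAi. ran-2, the RanGAP that triggers GTP hydrolysis in the cytoplasm, had 8441, 6595, 7099.8 and 4414 normalised reads in the csr-1 RNAi libraries, 5618, 4489, 5846 and 5012 in the P granule RNAi libraries and 6174, 7038, 7379 and 6602 in the EV libraries. Its P granule RNAi libraries were all below EV, and its log2 fold change was −0.38 (SE 0.17, limma adjusted p = 0.36). The csr-1 RNAi libraries spread to both sides, at −0.07 (SE 0.17). ran-3, the RCC1 counterpart that loads Ran with GTP on chromatin, had 8762, 8536, 7909 and 7364 normalised reads in the csr-1 RNAi libraries, 6255, 10984, 7086 and 6502 in the P granule RNAi libraries and 7129, 9292, 9662 and 7272 in the EV libraries. The groups overlapped throughout, with −0.02 (SE 0.18) under csr-1 RNAi and −0.14 (SE 0.18) under P granule RNAi. Under csr-1 RNAi ran-4 stood at 0.20 and ran-5, the RanBP3 counterpart, at −0.16, and under P granule RNAi they stood at 0.27 and 0.0023.

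Of the 8 outer ring genes, 6 had a fold change above 0 under csr-1 RNAi and 2 did under P granule RNAi, and after adjustment for transcript length 7 and 5 did. npp-15, the Nup133 counterpart, had 9537, 8733, 9807 and 6602 normalised reads in the csr-1 RNAi libraries, 4613, 4142, 4855 and 4411 in the P granule RNAi libraries and 4989, 6173, 6643 and 6323 in the EV libraries. Only csr-1 RNAi replicate 3 fell within the EV range, and all P granule RNAi libraries were below every library of the other groups. The log2 fold change against EV was 0.51 (SE 0.14, limma adjusted p = 0.029) under csr-1 RNAi and −0.42 (SE 0.14, limma adjusted p = 0.316) under P granule RNAi. The csr-1 RNAi call was lost without csr-1 RNAi replicate orig, 1 or 2 or EV replicate orig or 1, when only the groups compared were fitted, and without the 3 libraries named orig. npp-6, the Nup160 counterpart, had 7869, 7273, 7329 and 4876 normalised reads in the csr-1 RNAi libraries, 5057, 4615, 4421 and 3916 in the P granule RNAi libraries and 6205, 7905, 8257 and 6819.6 in the EV libraries. P granule RNAi lay wholly below EV with the largest distance of any member relative to its error, −0.69 (SE 0.16, limma adjusted p = 0.247), while csr-1 RNAi stood at −0.11 (SE 0.16). npp-10, which encodes Nup98 and Nup96 in one precursor and is needed for normal P granules in the worm, had 15032, 12653, 11961 and 9317 normalised reads in the csr-1 RNAi libraries, 12792, 13736, 10778 and 10138 in the P granule RNAi libraries and 13174, 16789, 17271 and 12415 in the EV libraries. Its groups overlapped and it stood at −0.29 (SE 0.17, limma adjusted p = 0.285) under csr-1 RNAi and −0.33 (SE 0.17, limma adjusted p = 0.38) under P granule RNAi. The other 5 outer ring genes ranged from 0.04 for npp-20 (Sec13) to 0.36 for npp-23 (Nup43) under csr-1 RNAi, and from −0.12 for npp-5 (Nup107) to 0.24 for npp-20 under P granule RNAi.

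The central channel and inner ring held a gene each that was higher under csr-1 RNAi in at least 1 comparison. npp-1, the Nup54 counterpart in the central channel, had 7827, 7489, 7491 and 7303 normalised reads in the csr-1 RNAi libraries, 3964, 4943, 4166 and 4043 in the P granule RNAi libraries and 4449, 4903, 5711 and 6037 in the EV libraries. The csr-1 RNAi libraries were above all 8 others, with a CV of 2.90%, the lowest of any member in that group. The log2 fold change against EV was 0.52 (SE 0.12, limma adjusted p = 0.0121) under csr-1 RNAi and −0.30 (SE 0.12, limma adjusted p = 0.337) under P granule RNAi. The csr-1 RNAi call was lost only without the 3 libraries named orig (limma adjusted p = 0.0592). The other channel genes, npp-4 (Nup58) and npp-11 (Nup62), stood at −0.18 and −0.35 under csr-1 RNAi. The inner ring gene npp-13, the Nup93 counterpart, had 6373, 5681, 5436 and 4835 normalised reads in the csr-1 RNAi libraries, 2924, 4874, 3461 and 3284 in the P granule RNAi libraries and 3886, 4629.8, 5022 and 3821 in the EV libraries. csr-1 RNAi overlapped EV by 1 library each way, with 0.37 (SE 0.16, limma adjusted p = 0.161), and P granule RNAi stood at −0.27 (SE 0.16). Its inner ring partners npp-3 (Nup205), npp-8 (Nup155) and npp-19 (Nup35) stood at −0.21, −0.53 and 0.37 under csr-1 RNAi and at −0.61, −0.32 and 0.08 under P granule RNAi.

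**Figure D4:**
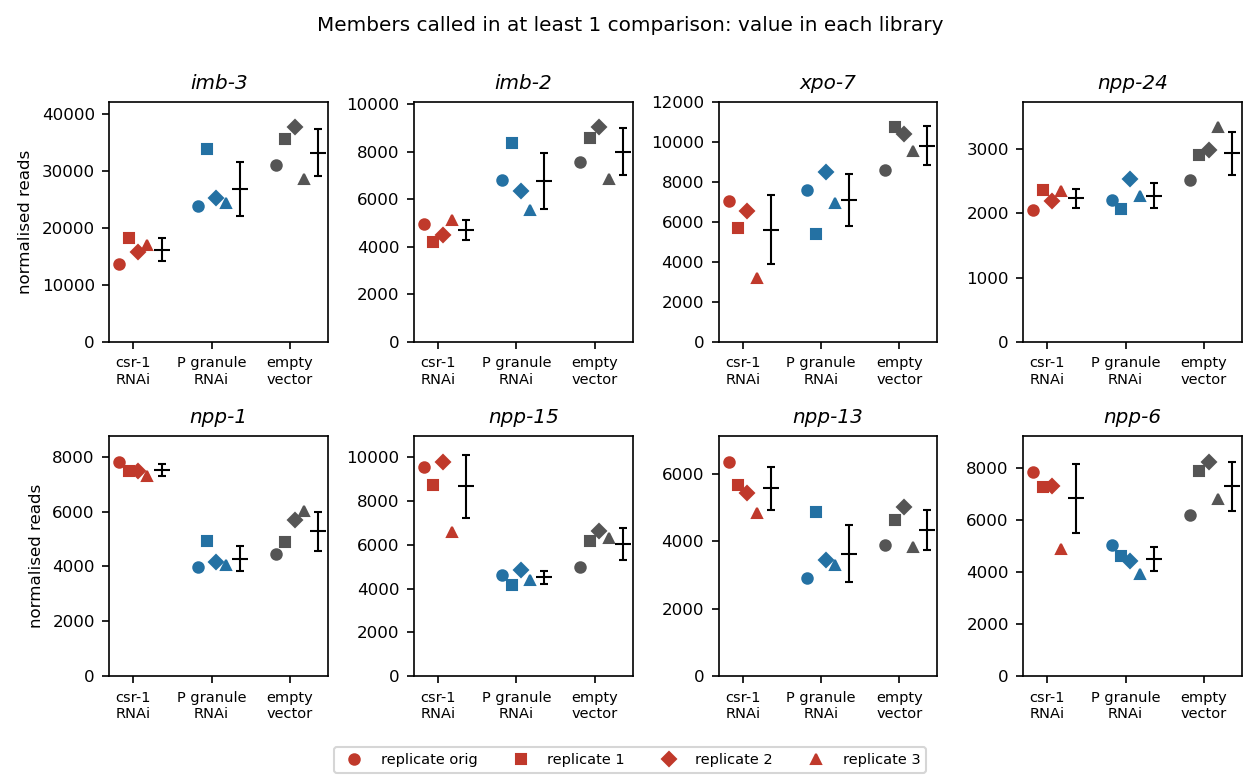
Normalised reads of the 8 genes called in at least 1 comparison, in each of the 12 libraries, with the mean and SD of each group in black and 1 symbol per replicate name. imb-3, imb-2, xpo-7 and npp-24 are lower and npp-1 is higher in every csr-1 RNAi library than in every EV library.

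On the cytoplasmic face, all 3 genes had fold changes below 0 in both comparisons with EV, although npp-9 stood at 0.20 under P granule RNAi after adjustment for transcript length. npp-24, the Nup88 counterpart, had 2049, 2370.1, 2186 and 2344 normalised reads in the csr-1 RNAi libraries, 2216, 2072, 2538 and 2265 in the P granule RNAi libraries and 2523, 2910.4, 2986 and 3341 in the EV libraries. The csr-1 RNAi libraries lay below all EV libraries, and P granule RNAi overlapped EV by 1 library each way. The log2 fold change was −0.39 (SE 0.11, limma adjusted p = 0.0392) under csr-1 RNAi and −0.37 (SE 0.11, limma adjusted p = 0.3) under P granule RNAi. This was the least firm of the 6 calls. It was lost in 14 of 24 alternatives, among them the scaling by library total and each of 8 fits that left out 1 library (csr-1 RNAi replicates orig, 1 and 2, P granule RNAi replicates orig and 3, and EV replicates 1, 2 and 3). npp-24 also overlaps a coding gene on each strand. npp-9, which encodes the Nup358 counterpart of the filaments, had 28412, 26364, 24463 and 21264 normalised reads in the csr-1 RNAi libraries, 26283, 36364, 25629 and 24296 in the P granule RNAi libraries and 26837, 33848, 36819.7 and 27532 in the EV libraries. Its groups overlapped, at −0.31 (SE 0.16) under csr-1 RNAi and −0.16 (SE 0.16) under P granule RNAi.

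Among the members with no call, 2 long transcripts stood far below 0. npp-21, the counterpart of the basket protein Tpr and with 6109 bp of exon the longest member, had 15936, 8893, 10728 and 1056 normalised reads in the csr-1 RNAi libraries, 8522, 5353, 4417 and 3630.1 in the P granule RNAi libraries and 12146, 14729, 14055 and 5968 in the EV libraries. csr-1 RNAi replicate 3 was at 1056 and the other 3 csr-1 RNAi libraries were at 8893 or more. The log2 fold change was −0.81 (SE 0.69, limma adjusted p = 0.476) under csr-1 RNAi and −1.09 (SE 0.69, limma adjusted p = 0.429) under P granule RNAi. npp-14, the Nup214 counterpart, had 2939 in csr-1 RNAi replicate 3 and 7807 to 10525 in the others, and stood at −0.75 (SE 0.33) in that comparison. The remaining basket genes npp-7 (Nup153) and npp-16 (Nup50) stood at −0.49 and −0.30 under csr-1 RNAi and at −0.31 and −0.07 under P granule RNAi. The membrane genes npp-12 (gp210), npp-22 (Ndc1) and npp-25 stood at −0.39, 0.22 and −0.41 under csr-1 RNAi and at −0.43, −0.13 and −0.12 under P granule RNAi. The last 2 members, npp-26 and npp-27, stood at 0.90 (SE 0.48) and 0.10 (SE 0.10) under csr-1 RNAi, where npp-26 had at most 40.7 normalised reads in a library.

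Transcript length moved with the fold changes. Over the 43 members the correlation of log2 fold change with log2 exon length was −0.52 under csr-1 RNAi and −0.84 under P granule RNAi. Over all tested genes it was −0.32 under csr-1 RNAi and −0.50 under P granule RNAi. These are correlations across genes measured in the same libraries and are given as a description. In each library, the median log2 difference from EV of genes with over 4000 bp of exon (696 genes, 9 of them members) was set against that of genes under 1500 bp (5948 genes, 8 of them members). This difference was 0.18, −0.68, −0.51 and −1.75 in csr-1 RNAi libraries orig, 1, 2 and 3. It was −0.29, −0.97, −0.81 and −1.06 in P granule RNAi and −0.09, 0.16, 0.25 and −0.27 in EV libraries. Relative to short transcripts, long ones were thus lower in all P granule RNAi libraries than in any EV library, by a small margin for P granule RNAi replicate orig, and csr-1 RNAi replicate orig was the only RNAi library within the EV range.

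An alternative in which this length trend was taken off each library was chosen after the data were seen. It removes any trend with length, whether it belongs to the library or to the treatment. Under csr-1 RNAi it called 6 members (14%, against 16.4% of all genes). imb-3 (log2 fold change −0.71, limma adjusted p = 0.0455) and xpo-7 (−0.56, limma adjusted p = 0.0152) were lower, and npp-1 (0.76), npp-15 (0.83), npp-13 (0.63) and npp-3 (0.35) were higher. npp-3, of 5443 bp, had stood at −0.21 without it. Under P granule RNAi no member was called (against 0.0529% of all genes), and npp-6 stood at −0.19.

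**Figure D5:**
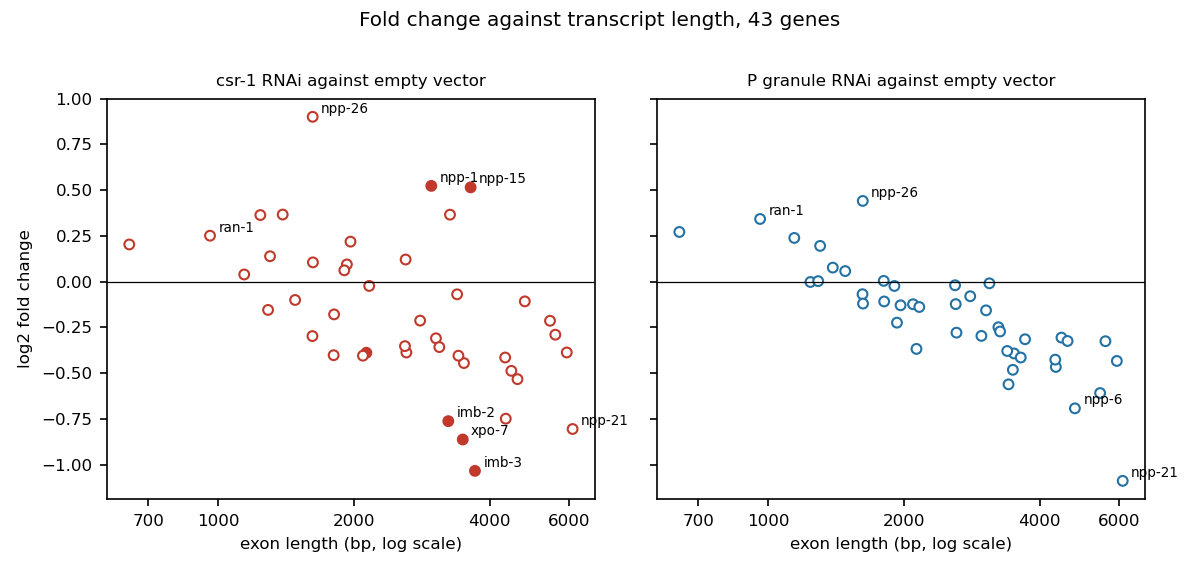
Log2 fold change of the 43 genes against exon length (log axis) for csr-1 RNAi on the left and P granule RNAi on the right, both against EV, with called genes filled. Under P granule RNAi the points fall with length (r = −0.84), while under csr-1 RNAi (r = −0.52) genes of about the same length, such as npp-15 and imb-3, lie far apart.

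csr-1 RNAi and P granule RNAi were also compared directly. Here, where length and fold change were nearly unrelated (r = 0.09), 6 of 43 members (13.95%) were called, against 9.52% of all genes (5.25% higher and 4.27% lower). Without csr-1 RNAi replicate 3 the count was 9 (20.9%), against 17.5% of all genes. After adjustment for transcript length it was 8 (18.6%, against 13.1%), with npp-3 (0.41) higher and xpo-7 (−0.48) lower in addition. At an unadjusted p under 0.05 there were 11 members (25.6%), against 23.3% of all genes, and 20 of 43 lay above 0 (46.5%, against 46.4%). The libraries did not overlap for 4 members that were higher under csr-1 RNAi (9.30%, against 7.4% of all genes) and 3 that were lower (6.98%, against 7.9%). Higher under csr-1 RNAi were npp-15 at 0.93 (SE 0.14, limma adjusted p = 0.00209), npp-1 at 0.82 (SE 0.12, limma adjusted p = 0.00159), npp-13 at 0.64 (SE 0.16, limma adjusted p = 0.028) and npp-6 at 0.58 (SE 0.16, limma adjusted p = 0.0387). The 4 nucleoporins belong to the outer ring, the channel and the inner ring. Lower were the import receptors imb-3 at −0.72 (SE 0.15, limma adjusted p = 0.0101) and imb-2 at −0.51 (SE 0.14, limma adjusted p = 0.0394). The calls of npp-1 and npp-15 held in every alternative and without any single library, and that of imb-3 was lost only without the 3 libraries named orig (limma adjusted p = 0.0603). Those of npp-13, npp-6 and imb-2 were lost in 8, 11 and 14 of 24 alternatives. Leaving out csr-1 RNAi replicate orig, 1 or 2 ended each of these 3 calls. That of npp-13 was also lost without P granule RNAi replicate orig, 2 or 3. That of npp-6 was also lost without P granule RNAi replicate 1, 2 or 3 or EV replicate 1 or 3, and that of imb-2 without P granule RNAi replicate orig, 1 or 2 or EV replicate orig or 1.

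Ratios were taken for 3 pairs of members that lie close together. Between csr-1 RNAi and EV the ratio shifted in 2 of them, both pairs of direct neighbours. npp-15 and ran-2 are neighbours on the same strand of chromosome III, and their log2 ratio was 0.41 ± 0.17 under csr-1 RNAi, −0.21 ± 0.08 under P granule RNAi and −0.18 ± 0.10 in EV (SD, n = 4). imb-3 and xpo-2 are neighbours on chromosome I, with log2 ratios of 1.06 ± 0.14 under csr-1 RNAi, 1.43 ± 0.20 under P granule RNAi and 1.74 ± 0.09 in EV. In these 2 pairs the ratios of the csr-1 RNAi and EV libraries did not overlap. Each pair holds a gene that was called on its own, npp-15 or imb-3, so this is not a separate result. How often the ratios of other gene pairs do so was not counted. nxf-1 and nxf-2 are not direct neighbours, because the gene C15H11.11 lies between them. Their ratios overlapped, with log2 ratios of 0.72 ± 0.54 under csr-1 RNAi, 0.70 ± 0.32 under P granule RNAi and 0.83 ± 0.12 in EV. Within groups the members varied less than most genes: their median CV was 12.8% in csr-1 RNAi, 17.6% in P granule RNAi and 12.7% in EV, against 29.0%, 26.2% and 19.4% over all tested genes in these groups. The medians were not matched for level.

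Other genes at the pore were given as lists. Of 18 mRNA export genes 16 were tested, and 3 rose under csr-1 RNAi and 0 fell (18.8% called, against 14.8% of all genes): the THO complex gene thoc-7 (log2 fold change 1.09), the poly(A) binding protein gene pabp-2 (0.84) and the exon junction gene mag-1 (0.81). All 3 have short transcripts of 602 to 979 bp of exon, and pabp-2 and mag-1 had their highest value in csr-1 RNAi replicate 3. They were also called without that library and after adjustment for transcript length, at 0.92 for thoc-7, 0.67 for pabp-2 and 0.51 for mag-1 in the adjusted fit. ddx-19 was called higher as well in both of these fits, making 4 of 16 (25%, against 14.1% and 16.4% of all genes). The median of that list was 0.25 under csr-1 RNAi and 0.18 under P granule RNAi, against 0.02 and 0.03 over all genes. Of 19 nuclear envelope genes, the lamin gene lmn-1 (0.69) and sun-1 (0.46), which links chromosomes to the cytoskeleton in meiosis, rose and unc-83 (−0.71) fell (15.8% called). unc-83 was no longer called after adjustment for transcript length (−0.37, limma adjusted p = 0.248), but emr-1, lem-3, lem-4 and lpin-1 were called in addition. In that fit 5 genes of the list were higher and 1 was lower (31.6% called, against 16.4% of all genes). lmn-1 had 17509 to 19363 normalised reads in csr-1 RNAi, against 9841 to 12303 in EV. The list's median was −0.03 under csr-1 RNAi and −0.11 under P granule RNAi. No gene of either list was called under P granule RNAi in the main fit or after adjustment for transcript length. Without csr-1 RNAi replicate 3, mag-1 and nxt-1 were called higher there (12.5% of the tested mRNA export genes). zyg-12 was called lower (5.26% of the nuclear envelope genes). In that fit 1.79% of all genes were called.

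In the authors' deposited table for csr-1 RNAi, 982 genes (5.16%) had an adjusted p under 0.05 and 0 members did. The authors' deposited table for P granule RNAi had 104 genes (0.558%) and 0 members. imb-3 had a fold change of 0.488, a p of 0.0398 and an adjusted p of 0.341 from DESeq in the authors' deposited table for csr-1 RNAi. Of the members called by limma in that comparison, it alone had a DESeq p under 0.05 there. The DESeq p-values of the others were 0.144 (imb-2), 0.144 (xpo-7), 0.272 (npp-15), 0.297 (npp-1) and 0.434 (npp-24).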

How the data were processed

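Gene reads were counted in 12 poly(A) libraries (4 per group) made with a kit that marks no strand and sequenced single-end at 100 bp, per the labels' protocols. Tools listed in the submitters' processing notes are DESeq 1.1.2.1, HTSeq 0.5.4p3, TopHat2 2.0.8b, CASAVA and SAMtools 0.1.18. The build is not given in the sources used here. GEO lists 3 samples, 1 per group, and the 12 columns were assigned to groups by their names. Values in the deposited gene table are a normalised signal, reads divided by the authors' size factor: all 187342 values above 0 (100%) were whole multiples of 1 read within 0.01 reads. The authors also deposited, per the file headers, group means of this signal, their ratio as a fold change, and raw and adjusted DESeq p-values. Entries naming no gene held 2.84% to 3.69% of reads and were left out. Unused value columns numbered 0.

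Names, exon lengths and overlaps came from WBcel235. 42 members carried their name there and xpo-7 was named by RefSeq. limma 3.58.1 (R 4.3.3; trend, robust) was fitted to log2(value + 1) of genes reaching 10 normalised reads in 4 or more libraries, over all 12 libraries, with two-sided p-values adjusted by Benjamini-Hochberg over all 11345 genes per comparison. Fold changes on this scale understate changes of low genes. Alternatives were edgeR 4.0.16 and DESeq2 1.42.0 on recovered reads, other scalings, filters, a pseudocount of 10, fewer samples, and fits without libraries. No sequences were used here. The procedure was tested on simulated data.

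The members, lists and tests were chosen with earlier results of these data known. Full values are given for every member called in any comparison, for ran-1, ran-2, ran-3, imb-1, xpo-1, nxf-1, npp-10, npp-9 and for the ima genes. npp-21 was added after its values were seen. p-values set the difference between groups against the spread between these libraries.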

Additional observations from a re-analysis of the deposited data

Results flagged for a closer look

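In 144 groups of 4 libraries, 11 values stood farther from the rest than Dixon's critical value allows, and chance alone flags about 1 in 20 groups. P granule RNAi replicate 1 held 7 of the 11. It was the highest of its group for imb-3 (33835 normalised reads, against 23900.4 to 25167 in the other 3), npp-9 (36364, against 24296 to 26283), npp-11 (8063, against 4993 to 5113), npp-16 (5276, against 2761 to 2904), npp-25 (1426, against 857 to 922) and xpo-2 (15335, against 8115 to 8826). It was the lowest for ran-4 (4099, against 5348 to 5471).

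In csr-1 RNAi, replicate orig was high for npp-26 (40.7, against 14.02 to 17.4), a gene near the low-value filter, and replicate 3 was high for npp-27 (2535, against 2292 to 2329). In EV, replicate 3 was high for ran-5 (5049, against 4304 to 4392) and low for the RNAi target glh-4 (5344, against 7620 to 7987).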

How the results depend on the processing

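The count of members called under csr-1 RNAi against EV was 6 (13.95%, against 14.8% of all genes), and it was 3 to 10 when 1 library was left out. It was 3 without csr-1 RNAi replicate 1 or EV replicate 1 (6.98%, against 9.23% and 9.46%). Without P granule RNAi replicate 1 it was 10 (23.3%, against 17.2%). For P granule RNAi against EV the count was 0 (against 0.0617% of all genes), with 1 by DESeq2 (npp-6, 2.33%, against 0.811%). With a library left out it was 0 to 2, the 2 being npp-6 and xpo-3 without csr-1 RNAi replicate 3 (4.65%, against 1.79%). The cause was not tested. For csr-1 RNAi against P granule RNAi the count was 6 (13.95%, against 9.52% of all genes), and 3 to 9 with a library left out. It was 3 when only those groups were fitted (6.98%, against 4.69%) and 2 without the 3 libraries named orig (4.65%, against 3.62%). It was 3 without csr-1 RNAi replicate orig, 1 or 2 or P granule RNAi replicate 2 (6.98%, against 6.44%, 4.76%, 5.26% and 6.42%). Without csr-1 RNAi replicate 3 it was 9 (20.9%, against 17.5%). With the replicate name as a block the counts were 8, 0 and 5 (18.6%, 0% and 11.6%, against 18.4%, 0.0529% and 11.3% of all genes). The block added ima-2 and npp-23 in the first comparison and lost imb-2 in the third. Same-named libraries deviated together in part: correlations for orig, 1, 2 and 3 were 0.19, 0.45, 0.66 and −0.0005 for csr-1 RNAi with P granule RNAi, −0.26, −0.18, −0.47 and 0.0012 for csr-1 RNAi with EV, and 0.52, −0.15, −0.40 and 0.36 for P granule RNAi with EV. Not every pair was above 0.1, and not every library was most like the one of its name, so the names are not taken to pair the libraries. Of the called genes, imb-3 against EV and npp-1 and npp-15 against P granule RNAi kept their calls in all 24 alternatives, and npp-1 against EV lost its call only without the libraries named orig (limma adjusted p = 0.0592). No named value with a call changed sign. In all, 1292 results kept their side of the threshold, 62 lost a call and 14 gained one. Without the 3 libraries named 3, an alternative added after the data were seen, 4, 0 and 7 members were called. These were 9.3%, 0% and 16.3%, against 11.2%, 0.055% and 12.8% of all genes. At 18.4 to 31.9 M reads per library, depth limits only npp-26 among the members.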
